A study of Caenorhabditis elegans with 12 samples.

Results

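The germ lines of mes-2 mutant worms were set against those of wild-type worms of Caenorhabditis elegans on 4 two-colour microarrays, which are 4 of the 12 arrays of the series. The 4 were chosen by their titles, which name mes-2 against wild type and number the replicates 1 to 4. Mutant RNA came from strain SS0186, for which the labels give no allele, and wild-type RNA came from strain unc-4(e120). Worms of both were grown at 20 °C to adulthood, and germ lines were dissected from adults that held at most a few fertilized embryos. The labels do not say whether mes-2 product supplied by the mother was present, or how many worms went into a sample. Mutant RNA carried Cy5 on replicates 1 and 3 and Cy3 on replicates 2 and 4. The other arrays, 4 each, compared mes-2; mes-4 double mutants (SS0965) with unc-4(e120) and mes-4 mutants (SS0803) with N2. For the double mutant, proliferated germ lines that contained oocytes were picked.

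MES-2 is the worm counterpart of Enhancer of zeste, the enzyme of the Polycomb repressive complex that methylates histone H3 on lysine 27, a mark of silenced chromatin. It works with MES-3 and MES-6, and all of them are needed for a fertile germ line. MES-4 is a separate enzyme, which methylates lysine 36 of histone H3 on genes active in the germ line.

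Each value below is a log2 ratio of mes-2 mutant over wild type, so that 0 means equal signal and a positive value means more signal from the mutant. Because an array holds only ratios, the level of a gene in either genotype was not measured, and fewer cells of a type cannot be told apart from less RNA per cell. The mes-2 arrays gave a value for 18592 to 19277 of 22490 probes, with medians of -0.01 to 0.02. Across genes, arrays with the same dye orientation correlated at 0.609 and 0.585, whereas the 4 pairs of opposite orientation lay between -0.086 and 0.041. Genes are not independent replicates, so these correlations are descriptions. In the limma fit over all 12 arrays 4125 of 12887 genes (32%) had a dye term with an adjusted p under 0.05, and its median size was 0.347, against 0.135 for the mes-2 ratio. Each coefficient rests on both orientations, and the values of single arrays are given below with this in view. Array number limits the precision, and the median standard error (SE) of a mes-2 ratio was 0.14.

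The mes-2 gene itself had log2 ratios of -2.09, -3.72, -2.58 and -2.81 on replicates 1 to 4, a mean of -2.80 (SE 0.20, limma adjusted p = 2.24e-05). All 4 arrays lay below 0, in either dye orientation. The sign of the mes-2 gene was also used to read the direction of the ratios, so it is no separate check of the strain label. In the double mutant the gene had -2.70, -2.07, -2.69 and -2.49, and the difference between the genotypes, -0.31 (SE 0.28), did not pass (limma adjusted p = 0.608). None of the 20 measured genes that flank mes-2 on chromosome II was called, and their mes-2 ratios ran from -0.85 to 0.54. mes-3, whose product is a partner of MES-2, rose by a smaller amount, with 0.41, 0.41, 0.57 and 0.47 on the 4 arrays (mean 0.46, SE 0.09, limma adjusted p = 0.0117). The 4 values of mes-3 lay close together, but its adjusted p was 0.0764 without replicate 2 and 0.0708 without replicate 4. mes-4 had 0.45, -0.09, 0.26 and -0.22, with both Cy5 arrays above 0 and both Cy3 arrays below, and did not pass (mean 0.10, SE 0.24, limma adjusted p = 0.909). mes-6 was not analysed here.

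A gene was called when its adjusted p in the limma fit was under 0.05. By this rule 676 of 12887 genes (5.25%) were called, 508 of them higher (3.94%) and 168 lower (1.3%) in mes-2 germ lines. The change exceeded 2-fold for 222 genes that rose and 36 that fell. Of the higher genes, 486 lay above 0 on every array with a value, and 155 of the lower genes lay below 0 on every array, and over all genes tested 2587 (20.1%) lay on 1 side of 0. When 1 mes-2 array at a time was left out, 291 of the 676 were called in each of the 4 fits, 240 higher and 51 lower. Genes known only by a sequence name made up 235 of the 508 higher genes (46.3%) and 40% of the genes tested. Annotated pseudogenes were 11 of the 168 lower genes (6.55%), 8 of the higher genes (1.57%) and 3.6% of the genes tested.

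Named genes at either end were chosen among called genes that lay on 1 side of 0 on every array with a value. The 15 highest had mean log2 ratios of 2.48 to 3.3, and 12 of them were called whichever mes-2 array was left out. Genes of neuronal signalling and secretion were among them. unc-31, which encodes the CAPS protein of dense-core vesicle release, had 3.03, 3.11, 2.97 and 2.48 on replicates 1 to 4. gpa-1, a G protein alpha subunit of sensory neurons, had 2.43, 3.49, 3.6 and 3.38. That both genes were raised on every array follows from the choice, whereas the lowest single value of unc-31 still exceeded a log2 ratio of 2. cng-1, a gene of the cyclic nucleotide-gated channel family, had 2.1, 3.23, 2.79 and 2.67 (mean 2.70, SE 0.27, limma adjusted p = 3.18e-04). nrx-1, which encodes the synaptic adhesion protein neurexin, had 2.56, 4.09, 2.17 and 3.16, with the Cy3 arrays higher than the Cy5 arrays. gcy-19, a receptor guanylyl cyclase gene, had values on 3 arrays, 2.41, 4.51 and 2.82.

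Other genes at this end have varied roles. citk-1, related to citron kinase, had 3.18, 3.43, 3.08 and 2.43 (mean 3.03, SE 0.36, limma adjusted p = 6.24e-04). ndx-2, a Nudix hydrolase gene, had 2.58, 2.37, 3.3 and 1.98 (mean 2.56, SE 0.17, limma adjusted p = 1.73e-05). vsra-1, an Argonaute gene, had 2.43, 2.31, 2.74 and 2.48 (mean 2.49, SE 0.38, limma adjusted p = 0.00319). The 4 mutant samples lay close together for vsra-1, whose SE, like every SE here, rests on all 12 arrays. cutl-23, a cuticlin-like gene, averaged 2.65 (SE 0.29), nac-1, a sodium-coupled carboxylate transporter gene on X, averaged 2.54 (SE 0.38), and cls-1, the CLASP microtubule-binding gene, ranged from 2.14 to 4.28 over the arrays. hsp-16.21, of the small heat shock protein genes, ranged from 1.87 to 4.07.

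The exceptions at this end were nit-1, sre-44 and oac-52, which lost the call in 1 or more of the fits with an array left out. nit-1, a nitrilase gene, had 2.63, 1.62 and 5.71 on replicates 1, 3 and 4 and no value on replicate 2. Its mean of 3.3 dropped to 1.33 without replicate 4 (limma adjusted p = 0.244), and it was not called without replicate 1 either (0.116). Leaving out replicate 2, which removes no value of nit-1, also ended the call (0.069). sre-44, a chemoreceptor gene, had 6.34 on replicate 2 against 1.92 to 2.54 on the other arrays, and without replicate 2 its mean was 2.05 (limma adjusted p = 0.0819); it was also lost without replicate 1, 3 or 4 (0.0584 to 0.0839). oac-52, an acyltransferase gene, was lost without replicate 1 (limma adjusted p = 0.0546) or 2 (0.114).

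**Figure D1:**
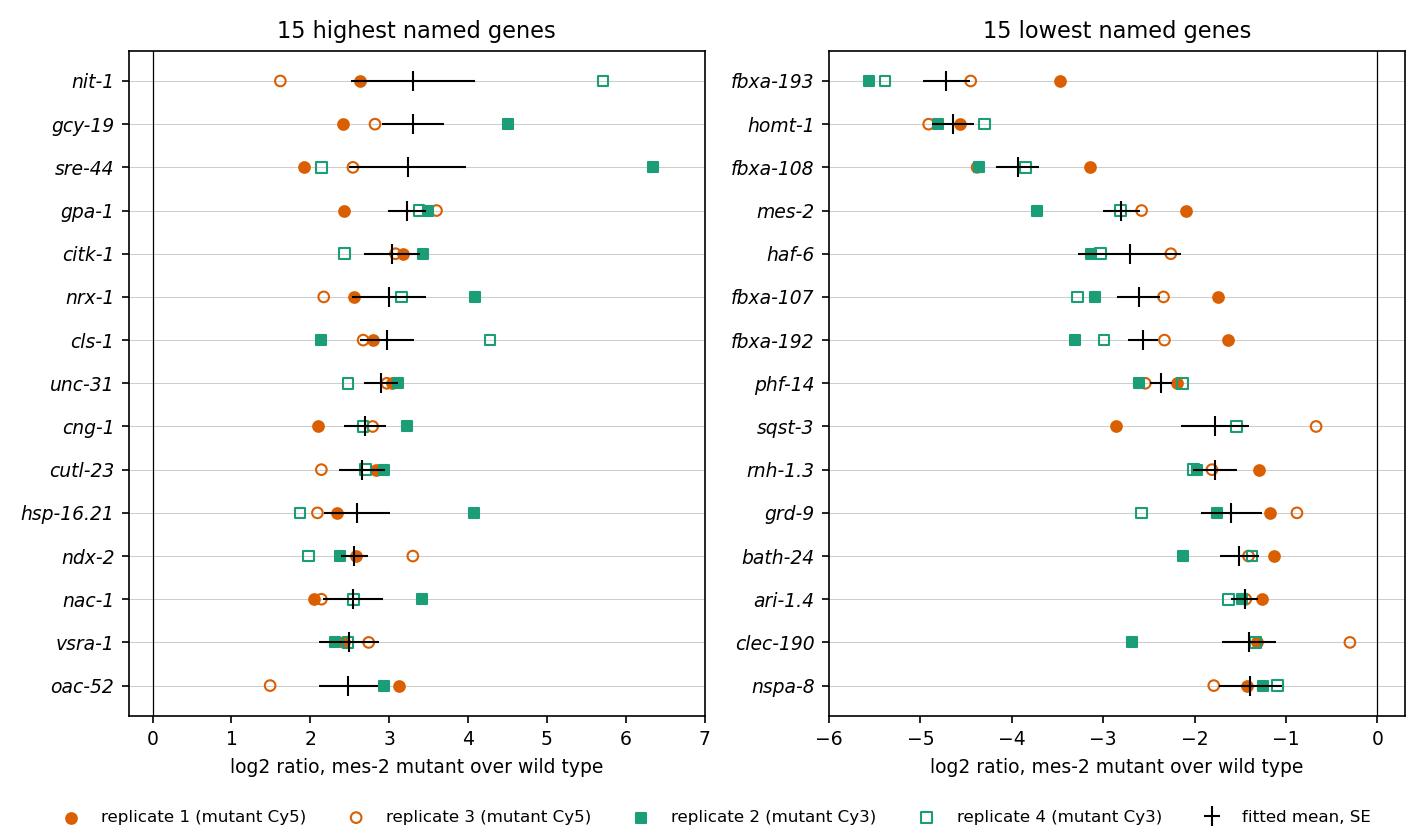
Log2 ratios of mes-2 mutant over wild type (horizontal axes) for the called named genes at the top (15) and at the bottom (15) of the order of means, 1 row per gene. Circles are arrays with the mutant RNA in Cy5, squares those with it in Cy3, and the black mark is the fitted mean with its SE. unc-31, vsra-1, homt-1 and phf-14 have their 4 arrays close together, whereas sre-44 has 6.34 on replicate 2 and nit-1 has 5.71 on replicate 4.

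Several of the highest values belonged to genes that have only a sequence name, which are given here although they were chosen after their values were seen. F13H8.8 on chromosome II had the largest rise of any gene tested, with 5.38, 5.79 and 6.19 on replicates 1 to 3 and no value on replicate 4 (mean 5.66, SE 0.29, n = 3, limma adjusted p = 1.73e-05). W03A5.2 on chromosome III had 3.02, 3.56, 3.37 and 3.72 (mean 3.42, SE 0.17, limma adjusted p = 3.74e-06). C10C6.7 on chromosome IV had 2.95, 2.76, 3.73 and 3.3 (mean 3.18, SE 0.21, limma adjusted p = 1.73e-05). For none of these genes did any array come near 0. At the other end, Y49E10.4 on chromosome III had -2.52, -3.26, -3.48 and -3.41 (mean -3.17, SE 0.45, limma adjusted p = 0.00216). Y48G9A.11, also on III, had -1.76, -3.15, -2.50 and -2.88 (mean -2.57, SE 0.39, limma adjusted p = 0.003).

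Of 19 neuronal and synaptic genes tested, 3 rose (15.8%, against 3.94% of all genes) and 0 fell, with a list median of 0.11 against -0.002 for all genes. These were unc-31, nrx-1 and ric-19, the last of which acts in dense-core vesicle maturation and had 1.85, 2.60, 1.96 and 1.38 (mean 1.95, SE 0.20, limma adjusted p = 2.90e-04). All of them were called in each fit that left out a mes-2 array. Of the rest of that list, snb-1, the synaptobrevin gene, had a mean of 0.11 (SE 0.13, limma adjusted p = 0.771), and unc-119, a gene expressed throughout the nervous system, had -0.01 (SE 0.12, limma adjusted p = 0.988). snt-4, a synaptotagmin gene outside the list that was chosen after its values were seen, had 1.36, 1.75, 2.06 and 2.31 (mean 1.87, SE 0.17, limma adjusted p = 1.79e-04).

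Neuropeptide and ion channel genes were called higher at about the rate of all genes, 3.94%. Of 85 neuropeptide and insulin-like genes, 3 rose (3.53%) and 0 fell (median 0.042). nlp-40, whose peptides are released by the intestine and pace defecation, had 1.78, 1.39, 1.72 and 1.21 (SE 0.08, limma adjusted p = 3.82e-06), and flp-22, an FMRFamide-like peptide gene, had 1.87, 2.18, 1.28 and 3.56 (mean 2.22, SE 0.38, limma adjusted p = 0.00771). The insulin-like gene ins-37 rose by 1.27 (SE 0.30) but was lost without replicate 1, 2 or 3 (limma adjusted p = 0.0592, 0.0921 and 0.0858). Of 51 genes for G proteins, RGS regulators and guanylyl cyclases, 4 rose (7.84%) and 0 fell (median 0.012), and gpa-1 and gcy-19 were the members called in every fit with an array left out. Of 112 ion channel genes, 4 rose (3.57%) and 0 fell (median 0.028), and none of the 4 was called in every such fit. The channel family gene cng-1, given above, is not a member of that list and was called in every such fit. acr-17, an acetylcholine receptor subunit gene with 1.22, 1.23 and 3.5 on replicates 1, 3 and 4, rose by 2.03 (SE 0.41, n = 3, limma adjusted p = 0.0184) and had 1.03 without replicate 4 (limma adjusted p = 0.103).

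In the 4 lists of transcription factors every called gene rose, as did 508 of the 676 genes called in all. Of all genes tested, 3.94% were called higher. Of 65 homeobox genes, 5 rose and 0 fell (7.69% higher, median 0.05), and ceh-58 had 0.94, 0.74, 1.43 and 1.29 (mean 1.1, SE 0.17, limma adjusted p = 0.00342). The other 4, ceh-41, ceh-88, ceh-49 and ceh-43, had means of 0.54 to 1.29, and each was lost in at least 2 of the 4 fits with an array left out, ceh-41 without replicate 3 (limma adjusted p = 0.0619) or 4 (0.0553), ceh-43 without replicate 1, 2 or 3 (0.0623 to 0.0894), and ceh-88 and ceh-49 in each fit (0.0552 to 0.239). Of 23 T-box and GATA factor genes, 3 rose and 0 fell (13%, median -0.007). tbx-2, a T-box factor of pharyngeal muscle, had 1.54, 2.63, 1.49 and 0.86 (mean 1.63, SE 0.25, limma adjusted p = 0.00342). egl-18, a GATA factor of the epidermal seam cells, had 1.05, 0.69, 1.46 and 0.75 (mean 0.99, SE 0.11, limma adjusted p = 5.83e-04). Both genes rose in all 4 mutant samples and kept the call whichever array was left out, whereas tbx-36 at 0.50 was lost in each such fit (limma adjusted p = 0.0812 to 0.21).

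Of 173 nuclear hormone receptor genes, 9 rose and 0 fell (5.2% higher, near the 3.94% of all genes, median 0.03). The 4 called in every fit with an array left out were nhr-47, nhr-105, nhr-15 and nhr-20, with means of 1.77 (SE 0.27), 1.22 (SE 0.20), 0.85 (SE 0.14) and 0.71 (SE 0.10). nhr-15 had 1.57 and 1.25 on its Cy5 arrays and -0.01 and 0.59 on its Cy3 arrays, so its rise was larger in one orientation. Of 27 basic helix-loop-helix genes, mxl-3, which acts in the response to fasting, was the 1 that rose (3.7%, mean 0.90, SE 0.18, limma adjusted p = 0.0163), and it was lost without replicate 1 (0.056) or 2 (0.0966).

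The deepest falls were smaller in number and lay between -4.72 and -1.39 for the 15 lowest named genes. homt-1, related to O-methyltransferases that act on hydroxyindoles, had -4.57, -4.81, -4.91 and -4.30 on replicates 1 to 4 (mean -4.65, SE 0.23, limma adjusted p = 3.74e-06). phf-14, a PHD finger gene, had -2.19, -2.61, -2.54 and -2.13 (mean -2.37, SE 0.12, limma adjusted p = 3.74e-06). In both genes the spread among the 4 mutant samples was small beside the fall. rnh-1.3, an RNase H gene, had -1.3, -1.97, -1.81 and -2.01 (mean -1.77, SE 0.24, limma adjusted p = 0.00157), and ari-1.4, of the Ariadne ubiquitin ligase genes, had -1.26, -1.48, -1.44 and -1.63 (mean -1.45, SE 0.15, limma adjusted p = 2.44e-04). Of the 15 genes, 10 were called whichever mes-2 array was left out. The rest were haf-6, sqst-3, grd-9, clec-190 and nspa-8, with means of -2.71, -1.78, -1.60, -1.41 and -1.39. Without single arrays, the adjusted p of haf-6 reached 0.114 (lost without replicate 2, 3 or 4), that of sqst-3 0.0657 (replicate 4), that of grd-9 0.105 (replicate 1, 2 or 4), that of clec-190 0.115 (replicate 1 or 2) and that of nspa-8 0.177 (each of the 4), all by limma.

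Genes of the F-box, MATH and BTB families were called lower more often than genes at large. F-box proteins and proteins with a BTB domain can act as substrate adaptors of cullin ubiquitin ligases, and the families are large. Of 269 members tested, 21 fell (7.81%, against 1.3% of all genes) and 14 rose (5.2%, against 3.94%), and the list median was -0.058. With 1 mes-2 array left out the counts ran from 13 to 20 lower and 6 to 12 higher, and 12 of the lower and 6 of the higher genes were called in every fit with an array left out. Within the families, fbxa genes accounted for 7 of the lower genes of 112 tested, bath genes for 9 of 30, fbxc genes for 2 of 32, btb genes for 2 of 13 and math genes for 1 of 24, and 0 of 58 fbxb genes were called in either direction. All 7 lower fbxa genes lie on chromosome V, and 7 of the 9 lower bath genes lie on chromosome II. How the tested fbxa and bath genes divide among the chromosomes was not counted, so these counts show no preference for V or II. Members share sequence, so that a probe may take up RNA of a relative, and which copy a ratio belongs to was not tested.

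The F-box genes that fell most are near neighbours. On chromosome V, fbxa-192, fbxa-193 (a pseudogene in the annotation) and fbxa-108 lie within 4 consecutive gene positions. fbxa-193 had -3.47, -5.56, -4.45 and -5.39 on replicates 1 to 4, fbxa-108 had -3.15, -4.36, -4.38 and -3.85, and fbxa-192 had -1.63, -3.31, -2.33 and -2.99. No array of these genes came near 0, and replicate 1 gave the smallest fall in each. fbxa-129, the measured gene that lies among them, had -0.61, 0.22, -0.74 and 0.15 (mean -0.25, SE 0.14, limma adjusted p = 0.437). The 20 measured genes that flank the group were not called either and lay between -0.56 and 0.17, so that the fall had sharp borders in gene order. fbxa-107, elsewhere on V and next to fbxa-210, had -1.74, -3.09, -2.34 and -3.28, and fbxa-210 had -0.42, -0.90, -0.39 and -0.88 (mean -0.65, SE 0.09, limma adjusted p = 0.00133).

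A second group of lower genes lies on chromosome II, where 6 of 7 consecutive measured genes fell. In order they are bath-1, bath-3, bath-5, bath-19, bath-20, btb-3 and bath-24, of which bath-3 was not called (mean -0.08, SE 0.12, limma adjusted p = 0.834). bath-24 had -1.13, -2.13, -1.41 and -1.37 (mean -1.51, SE 0.21, limma adjusted p = 0.00186), bath-1 had -0.68, -1.08, -0.96 and -0.68 (mean -0.85, SE 0.13, limma adjusted p = 0.00352), and btb-3 had -0.61, -1.33, -0.44 and -0.72 (mean -0.78, SE 0.13, limma adjusted p = 0.00435). bath-19, bath-20 and bath-5 fell less, to -0.55, -0.53 and -0.73. All 24 single values of the 6 genes lay below 0, and those of bath-5 and bath-19 were close to 0 with the mutant in Cy5 (-0.42 to -0.05) and near -1 with it in Cy3 (-1.23 to -0.87). bath-5 lost its call in each fit with an array left out (limma adjusted p = 0.0739 to 0.191), and bath-20 without replicate 1 (0.0523) or 2 (0.069). The 20 measured genes on either side were not called, with ratios of -0.59 to 0.37. This run, like those described next, was chosen after the values were seen.

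Called genes lay beside others of their direction more often than genes at large did. Of the 504 higher genes with a position, 124 (24.6%) had another higher gene within 3 positions, against 13.3% of 12817 genes tested with a position. Of the 165 lower genes, 30 (18.2%) had a lower neighbour, against 4.42%. Families of related genes tend to lie together in the worm genome, and no allowance was made for that. The higher genes formed 4 runs of 4 genes, 10 of 3 and 39 of 2, and the lower genes 1 run of 6, 2 of 3 and 9 of 2. The third lower run of 3 or more was on III, with Y48G9A.7 at -1.68, -1.92, -1.58 and -1.58, Y48G9A.11 as above, and gcn-1, a translation regulator gene, at -0.72. gcn-1 was not called when any mes-2 array was left out (limma adjusted p = 0.0864 to 0.194).

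Of the 4 runs of higher genes, 3 lie on chromosome IV and 1 on V. The run on V is F14H3.3, F14H3.4, F14H3.5 and F14H3.6, 4 neighbours with no measured gene between them, whose means were 0.97, 1.05, 0.78 and 0.74 (SE 0.10 to 0.12). All 16 single values lay between 0.55 and 1.23, and the calls held whichever array was left out. Of 20 measured genes around them T10C6.7 was called higher as well (0.57, limma adjusted p = 0.0482), but in no fit with a mes-2 array left out (0.0636 to 0.225). On IV, K01G12.3, F02H6.2 and F02H6.4 had means of 0.89, 0.99 and 1.12 (SE 0.13 to 0.18) and kept their calls, whereas the next gene, sqrd-1, a sulfide oxidoreductase gene at 1.37, lost its call in each fit (limma adjusted p = 0.0504 to 0.124). A second run on IV holds phyh-1, ZK550.6, atgp-1 and lhfp-4, of which ZK550.6 had 2.43, 1.70, 2.51 and 2.15 (mean 2.2, SE 0.25, limma adjusted p = 4.50e-04) and atgp-1 averaged 1.07 (SE 0.14). phyh-1 was lost without replicate 2, 3 or 4 (limma adjusted p = 0.187, 0.086 and 0.103) and lhfp-4 without replicate 2 (0.0764). The third run on IV is sph-1, islo-1, pmk-1 and faah-2. pmk-1, the p38 kinase of innate immunity, had 0.80, 1.37, 1.43 and 1.18 (mean 1.19, SE 0.14, limma adjusted p = 6.61e-04), and sph-1 kept its call as well, whereas islo-1 was lost without replicate 1, 3 or 4 (limma adjusted p = 0.058, 0.0549 and 0.217) and faah-2 without replicate 1 or 3 (0.0594 and 0.062).

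The reverse also occurred. homt-1 and nlp-40 are the first pair of genes in the order at one end of chromosome I, and they moved in opposite directions, to -4.65 and 1.52. The 9 measured genes that follow were not called, with ratios of -0.34 to 0.59.

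**Figure D2:**
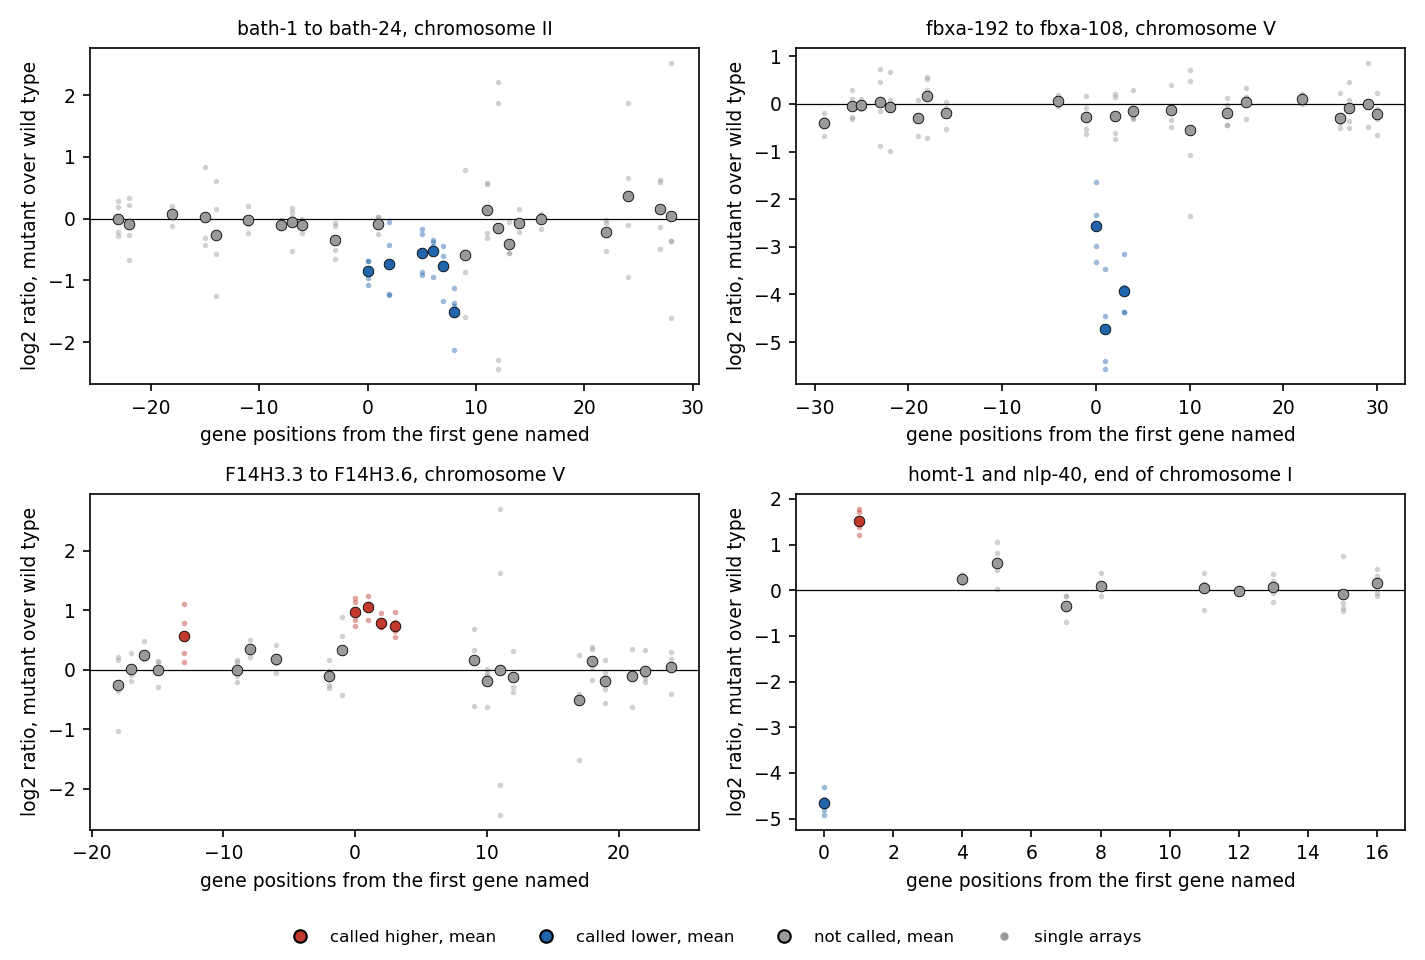
Log2 ratios of mes-2 mutant over wild type (vertical axes) against gene position counted from the first gene named in each panel (horizontal axes). Large points are means, small points single arrays, coloured by whether the gene was called higher, called lower or not called. The 6 called BATH and BTB genes and the 3 called F-box genes sit below uncalled flanks, the 4 F14H3 genes sit above theirs, in which T10C6.7 (0.57) was also called higher, and homt-1 (-4.65) and nlp-40 (1.52) lie side by side.

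Of 20 genes of germline identity and P granules, the RNA-protein bodies of germ cells, 0 rose and 1 fell (5%, median 0.04), while 5.25% of all genes were called in either direction. pgl-1 had -0.17 (SE 0.08, limma adjusted p = 0.379) and glh-1, a P granule helicase gene, had 0.03 (SE 0.11, limma adjusted p = 0.951). pgl-2 was the member that fell, to -0.53 (SE 0.10, limma adjusted p = 0.0112), and it was lost without replicate 2 (0.0753) or 4 (0.0651). Of 28 meiotic chromosome genes 1 fell (3.57%, median -0.019), cosa-1 of the crossover machinery, at -0.36 (SE 0.07, limma adjusted p = 0.0118), and it was lost without replicate 1, 2 or 3 (0.056, 0.0619 and 0.059). None of 13 genes that govern germline stem cells and entry into meiosis (median 0.05), of 19 oocyte genes (median 0.118) or of 41 major sperm protein genes (median 0.12) was called. gld-1, a translational repressor of that first list, had 0.08, -0.35, 0.19 and -0.27, above 0 in Cy5 and below 0 in Cy3 (mean -0.09, SE 0.09, limma adjusted p = 0.708). The widest means in these lists had wide spreads and did not pass, and are named after their values were seen: the P granule gene meg-4 had 1.48, -3.93, -1.02 and -1.87 (limma adjusted p = 0.305). The oocyte gene puf-7 had 0.48, -0.13, 0.42 and -3.88 (limma adjusted p = 0.503), and daz-1, of the stem cell and meiosis list, had 0.77, -0.26, 0.36 and 2.49 (limma adjusted p = 0.22). At an unadjusted p under 0.05 limma gave 2127 of all 12887 genes (16.5%).

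Of 16 sperm genes other than the major sperm protein genes, 2 rose and 0 fell (12.5% higher, against 3.94% of all genes, median 0.042). fog-3, which commits germ cells to sperm, had 0.74, 0.66, 0.63 and 0.85, 4 values within a narrow range (mean 0.72, SE 0.08, limma adjusted p = 4.95e-04). spe-15, a myosin gene of sperm formation, had 0.98, 0.92, 0.77 and 0.32 (mean 0.75, SE 0.16, limma adjusted p = 0.0186) and was lost without replicate 1, 2 or 3 (0.0954, 0.114 and 0.0609). Of 16 Argonaute genes 2 rose, vsra-1 and alg-1 (12.5%, median 0.078). alg-1, an Argonaute of microRNAs, had 1.04 and 1.75 on its Cy5 arrays and 0.50 and 0.28 on its Cy3 arrays (mean 0.89, SE 0.16, limma adjusted p = 0.00685). The germline Argonautes csr-1, hrde-1 and prg-1 had means of 0.07, -0.03 and -0.19 and did not pass.

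A dissection can carry somatic tissue along, and the lists of sheath, muscle, early embryo, intestine and cuticle had few calls. The other somatic lists are given above. Of those, the neuronal, T-box and GATA, G protein and homeobox lists had 15.8%, 13%, 7.84% and 7.69% called higher. The remaining somatic lists had 3.53% to 5.2%. None of 10 genes of the gonadal sheath and spermatheca (ratios -0.31 to 0.15), of 24 muscle myofilament genes (median -0.12) or of 18 early embryonic genes (median -0.021) was called. The sheath list had medians of 0.015, -0.045, -0.075 and -0.092 on replicates 1 to 4, muscle genes had -0.095, -0.025, -0.23 and 0, and early embryonic genes had -0.34, 0.34, -0.19 and 0.28. The embryonic median thus changed sign with the dye, and the muscle median did not rise on any array. The myosin genes unc-54 and myo-3 had -0.18 and -0.14, and lim-7 of the sheath had -0.03. Of 23 intestinal genes 1 rose (4.35%, against 3.94% of all genes, median 0.04). It was pept-1, the oligopeptide transporter of the gut, with 1.25, 0.96 and 0.41 on replicates 1, 2 and 4 (mean 0.95, SE 0.12, n = 3, limma adjusted p = 0.00227). The intestinal list had medians of 0.06, 0.19, -0.485 and 0.235, low on replicate 3 alone, and vit-2, a yolk protein gene, had 1.26, 0.22, -0.63 and -0.06. Of 123 collagen and cuticle genes 1 rose (0.813%), col-36, with 1.62, 1.42, 1.47 and 1.1 (mean 1.40, SE 0.18, limma adjusted p = 8.95e-04). The part that tissue carried along plays in the called genes was not tested.

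**Figure D3:**
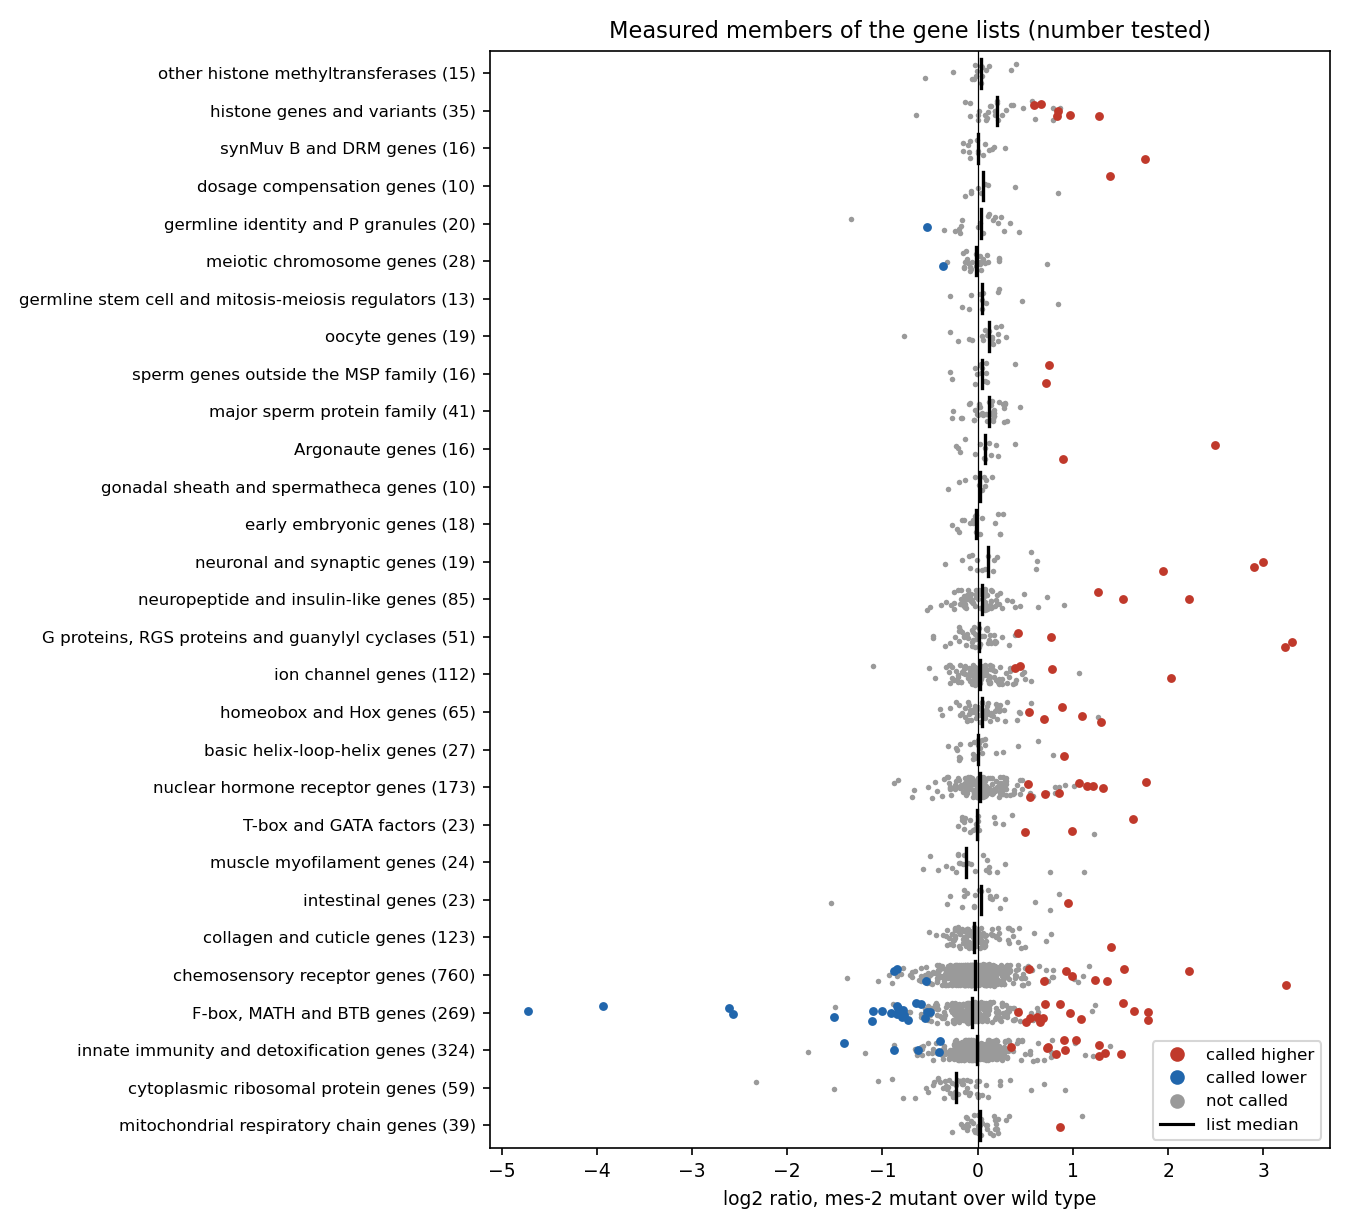
Mean log2 ratios of mes-2 mutant over wild type (horizontal axis) for the measured members of each gene list with at least 5 of them, 1 row per list with the number tested. Points are genes, red where called higher, blue where called lower and grey where not called, and the black bar is the list median. Called points in the neuronal, neuropeptide, homeobox and nuclear hormone receptor lists lie above 0, whereas the F-box, MATH and BTB list has 21 lower and 14 higher members.

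Among the chromatin genes of the lists, histones made up most of the calls. Of 35 histone genes and variants, 6 rose and 0 fell (17.1% higher, against 3.94% of all genes), with list medians of 0.12, 0.37, 0.42 and 0.36 on replicates 1 to 4. The neighbours his-62 and his-59 and the neighbours his-45 and his-48 on IV were 4 of them, with means of 0.85, 0.83, 0.96 and 0.66. The rest were his-37, at 0.59, and htz-1, the H2A.Z variant gene, which had 0.74, 0.17, 2.12 and 2.06. None of the 6 was called in every fit with an array left out. his-62 was lost without replicate 4 (limma adjusted p = 0.0608), htz-1 without replicate 3 (0.178) or 4 (0.18), and his-45 without replicate 2, 3 or 4 (0.114, 0.0991 and 0.103). his-59 and his-48 were lost without replicate 2, 3 or 4 (0.0766 to 0.118), and his-37 in each of the 4 fits (0.058 to 0.223). The count of higher histone genes ran from 0 without replicate 4 to 12 without replicate 3 of mes-4 and replicates 1 and 4 of the double mutant, and gene copies share sequence. None of 3 genes of the lysine 27 demethylase family and of 15 other histone methyltransferase genes was called (medians 0.055 and 0.031), with utx-1, a lysine 27 demethylase gene, at 0.06 (SE 0.11, limma adjusted p = 0.89). The lists do not hold every gene with a set name. set-10, which is not in them, was called higher on chromosome I, in a run of 3 genes with means of 0.65 to 1.65.

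Of 16 genes of the synMuv B and DRM class 1 rose (6.25%, against 3.94% of all genes). This was lin-15A, whose product belongs to the class A synMuv proteins, with 1.88, 1.61, 2.04 and 1.49 (mean 1.75, SE 0.23, limma adjusted p = 0.0011). It was raised alike in the double mutant (1.73) and in mes-4 mutants (1.75). Of 10 dosage compensation genes 1 rose (10%). This was sdc-3, a gene of dosage compensation on the X chromosome and of sex determination, with 1.5, 1.33, 1.42 and 1.34 (mean 1.40, SE 0.09, limma adjusted p = 9.93e-06). Its 4 arrays hardly differed, and its rise exceeded that in the double mutant (0.37) by 1.03 (SE 0.12, limma adjusted p = 6.95e-04) and that in mes-4 mutants (0.42) by 0.97 (SE 0.12, limma adjusted p = 0.00256). tra-3, a calpain protease gene of sex determination chosen after its values were seen, had 2.19, 1.93, 2.29 and 1.82 (mean 2.06, SE 0.26, limma adjusted p = 0.00103).

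Genes of immunity and detoxification gave calls at about the rate of all genes, 11 higher (3.4%) and 5 lower (1.54%) of 324 tested. The UDP-glucuronosyltransferase genes ugt-61, ugt-64 and ugt-45 rose by 1.27 (SE 0.14), 1.27 (SE 0.15) and 1.03 (SE 0.10) and kept the call whichever array was left out. ugt-64 had 1.58, 1.17, 1.26 and 1.07, whereas ugt-61 had 1.88 and 1.87 in Cy5 and 0.71 and 0.64 in Cy3. The neighbouring glutathione S-transferase genes gst-7 and gst-8 rose by 0.92 (SE 0.16) and 0.83 (SE 0.14), and the C-type lectin genes clec-104 and clec-123 by 1.34 (SE 0.17) and 0.73 (SE 0.12). None of the 5 lower genes, which include clec-190, kept its call in every fit with an array left out. Of 760 chemosensory receptor genes 9 rose (1.18%) and 3 fell (0.395%), below the rates over all genes. srh-16 had 2.01, 2.46, 2.77 and 1.63 (mean 2.22, SE 0.17, limma adjusted p = 5.80e-05), and srx-102, with values on 3 arrays, fell to -0.88 (SE 0.12, n = 3, limma adjusted p = 0.00224).

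Of 59 cytoplasmic ribosomal protein genes 0 were called, although their medians of -0.13, -0.20, 0.01 and -0.30 on replicates 1 to 4 lay below 0 on 3 arrays. Of 39 mitochondrial respiratory chain genes, the complex I gene gas-1 on X was the 1 that rose (2.56%, against 3.94% of all genes). Its mean was 0.86 (SE 0.19, limma adjusted p = 0.0238), and it lost its call in each fit with an array left out (0.0708 to 0.107). gas-1 rose further in the double mutant, to 2.51, and the difference of -1.65 (SE 0.27) passed (limma adjusted p = 0.00502).

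By chromosome, the share of tested genes that were higher in mes-2 ran from 3.41% on V and X to 5.29% on IV, where 109 of 2061 genes rose. The share that were lower ran from 0.588% on X, 10 of 1702 genes, to 1.73% on III. X genes thus contributed 58 of 505 higher genes with a known chromosome (11.5%), while they were 13.3% of the genes tested. That share depended on the arrays in the fit. It was 17.2% without replicate 3 of mes-4 and replicates 1 and 4 of the double mutant, and 18.3% with the mes-2 arrays alone. Per array, the median of X genes minus that of autosomal genes was -0.02 and -0.085 with the mutant in Cy5 and 0.12 and 0.15 with it in Cy3. The mean of 0.041 ± 0.112 (SD, n = 4) did not pass the exact sign-flip test (two-sided p = 0.5), for which 4 arrays allow no p below 0.125.

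**Figure D4:**
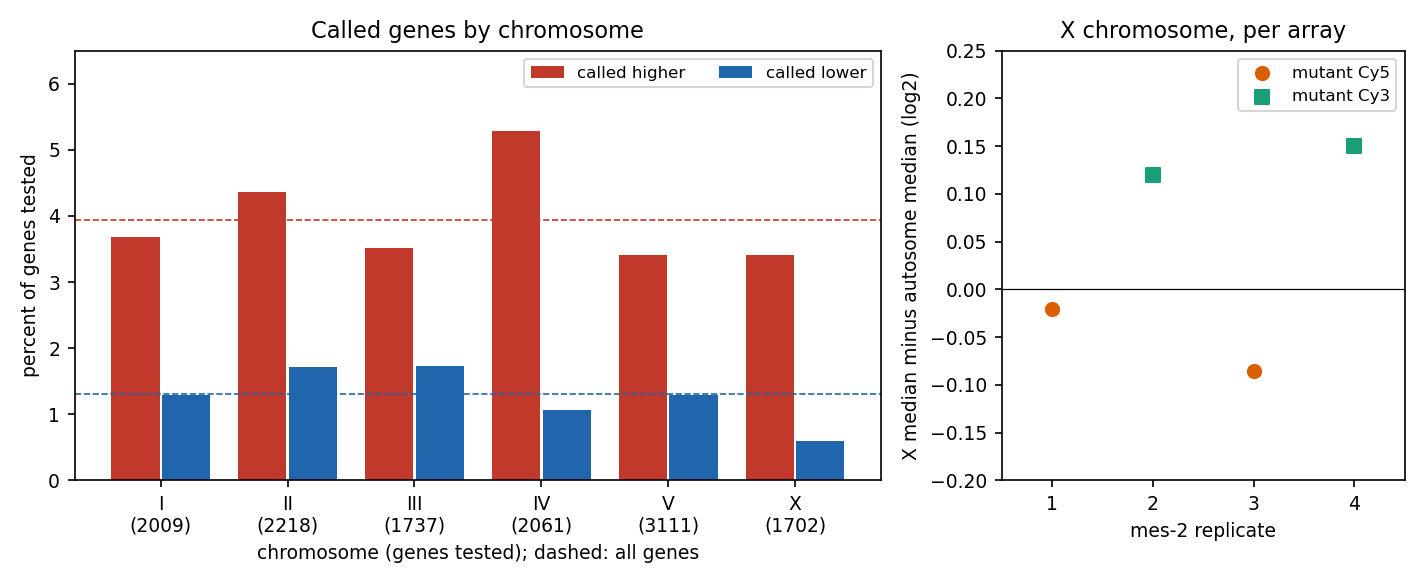
Left, percent of tested genes called higher and lower in mes-2 on each chromosome, with the number tested under each name and the shares over all genes, 3.94% and 1.3%, as dashed lines. Right, median log2 ratio of X genes minus that of autosomal genes on each mes-2 array, which is below 0 with the mutant in Cy5 and above 0 with it in Cy3.

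The double mutant was compared with the same wild-type strain. It is a strain other than that of the mes-2 mutant, and its germ lines were selected differently. Mutant strain, selection and the loss of mes-4 therefore cannot be told apart here. Genes called higher in mes-2 had a median log2 ratio of 0.918 in mes-2 and 0.491 in the double mutant, and 429 of the 508 had the same sign there. Genes called lower had a median of -0.635 in mes-2 and -0.216 in the double mutant, and 121 of the 168 had the same sign. The share of all genes with the same sign was not counted. The members were chosen by their values in mes-2, so a smaller median elsewhere is a description. The difference of mes-2 minus the double mutant was called for 798 genes (6.19%), 338 above 0 (2.62%) and 460 below 0 (3.57%). Among the higher genes the difference was called above 0 for 124 and below 0 for 37. Among the lower genes it was called below 0 for 50 and above 0 for 2. The difference reuses the mes-2 values by which these genes were chosen, so these counts are descriptions too.

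Among the lower genes homt-1 had the largest such difference, with 0.09, -0.67, -1.25 and 0.31 in the double mutant, all above its 4 mes-2 values given above. The difference was -4.27 (SE 0.33, limma adjusted p = 5.04e-05). fbxa-193 had -0.95, -1.42, -1.87 and -0.99 there, a fall in both genotypes that was deeper in mes-2 by -3.41 (SE 0.36, limma adjusted p = 4.34e-04). fbxa-192 had 0.21, 0.25, 0.23 and 0.41 in the double mutant (difference -2.84, SE 0.23, limma adjusted p = 5.94e-05), and phf-14 differed by -2.26 (SE 0.17, limma adjusted p = 4.47e-05). For 26 of 269 F-box, MATH and BTB genes the difference was called with the lower value in mes-2, and for 5 with the higher value. Of all genes, 3.57% and 2.62% were called in these directions. bath-24 and btb-3 were among the 26, with double mutant ratios of -0.15 and 0.08 and differences of -1.36 (SE 0.30) and -0.85 (SE 0.18). fbxa-218 went the other way, with 1.53 in mes-2 and -0.44 in the double mutant (difference 1.97, SE 0.20, limma adjusted p = 5.89e-04).

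Of the 15 highest named genes, 10 were also called in the double mutant, as were 241 of all 508 higher genes (47.4%) in the same direction. Over all 12887 genes tested, 1240 were called higher there. For 4 of the 15 the difference was called with the larger rise in mes-2, as it was for 124 of the 508. unc-31 had -0.02, 1.08, 1.64 and 0.64 in the double mutant, all below its mes-2 values (difference 2.06, SE 0.31, limma adjusted p = 0.00293), and gcy-19, gpa-1 and cls-1 were the others. nrx-1, cng-1 and nac-1 had double mutant ratios of 3.1, 2.72 and 3.26, and their differences did not pass (limma adjusted p = 0.956, 0.986 and 0.523). nlp-40, tbx-2 and egl-18 had 0.03, 0.07 and -0.51 in the double mutant, with differences of 1.49 (SE 0.11), 1.56 (SE 0.36) and 1.49 (SE 0.16). nrsn-1, a neurensin gene, had 2.85, 2.83 and 1.5 on replicates 1, 3 and 4 of mes-2 and a ratio of -0.46 in the double mutant (difference 2.73, SE 0.41, limma adjusted p = 0.00634). spe-15 differed in sign, with 0.75 in mes-2 and -1.40 in the double mutant (difference 2.15, SE 0.22, limma adjusted p = 3.43e-04).

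Some genes were lower in mes-2 than in the double mutant without a call in mes-2. aly-1, an RNA export gene, had -0.94, -0.47, -0.38 and -0.63 in mes-2, which was not called (limma adjusted p = 0.107), against 3.71, 3.53, 2.84 and 3.58 in the double mutant. egl-6, a neuropeptide receptor gene on X, had 0.98, 0.99, 1.03 and 1.18 in mes-2 and was not called (SE 0.29, limma adjusted p = 0.0725), although its 4 values were close to each other. Its ratio in the double mutant was 4.00, and the difference of -2.96 (SE 0.42) passed (limma adjusted p = 0.00219).

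In mes-4 mutants the wild type was N2 and the mutant strain was also another one, so strain and mutation cannot be told apart in the difference. Genes higher in mes-2 had a median of 0.241 in mes-4 mutants and genes lower in mes-2 had -0.131. The difference of mes-2 minus mes-4 was called for 252 genes (1.96%), 168 above 0 (1.3%) and 84 below 0 (0.652%). Among the higher genes the difference was called above 0 for 126 and below 0 for 4. Among the lower genes it was called below 0 for 29 and above 0 for 1. The difference reuses the mes-2 values by which these genes were chosen, so the medians and counts are descriptions. mes-2 itself lay lower in mes-2 than in mes-4 mutants by -2.59 (SE 0.28, limma adjusted p = 0.00119). rnh-1.3 was lower in mes-2 (-1.77) and higher in mes-4 mutants (1.87), a difference of -3.64 (SE 0.34, limma adjusted p = 5.48e-04). homt-1 and phf-14 had -0.46 and 0.15 in mes-4 mutants and differed by -4.19 (SE 0.33) and -2.52 (SE 0.17). The 15 highest named genes were likewise chosen by their mes-2 values, and all had the larger mean in mes-2. For 6 of the 15 the difference from mes-4 was called. Of these 6, ndx-2 had the smallest p, with 2.56 in mes-2 and 0.09 in mes-4 mutants (difference 2.47, SE 0.24, limma adjusted p = 6.36e-04).

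**Figure D5:**
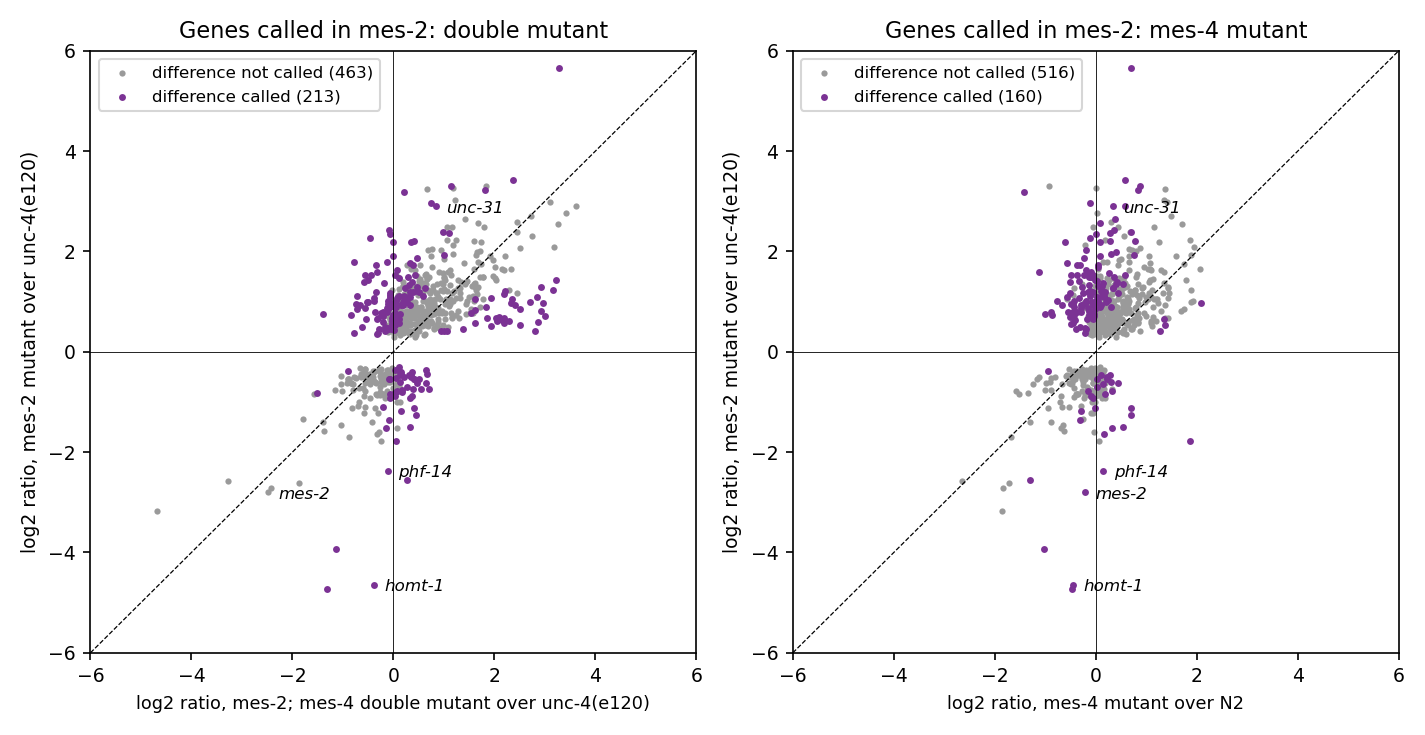
Log2 ratios of the 676 genes called in mes-2, with the mes-2 value on the vertical axes against the value in the double mutant (left) and in mes-4 mutants (right) on the horizontal axes. The dashed line marks equal ratios, and purple points are genes whose difference was called. homt-1 and phf-14 lie low in mes-2 and near 0 in both others, mes-2 lies on the line in the double mutant alone, and unc-31 lies above it in both.

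Some genes followed the dye and not the genotype. fbxb-35, which lies near the BATH genes on II, had -2.29 and -2.43 with the mutant in Cy5 and 1.87 and 2.22 with it in Cy3, and nhr-176, near the F14H3 genes on V, had -1.93, -2.43, 1.62 and 2.70 in the same order. Both averaged near 0 (-0.16 and -0.01) and neither was called for mes-2. Among the 676 called genes the dye term passed for 245 (36.2%, against 32% of all genes). inx-12 and inx-13, neighbouring innexin genes for gap junctions chosen after their values were seen, carried opposite dye shifts, with 0.95, 0.58, 1.16 and 0.33 for inx-12 and 0.25, 0.69, 0.04 and 0.77 for inx-13. Both still lay above 0 on every array and were called (means 0.76 and 0.44, SE 0.09 and 0.08, limma adjusted p = 6.66e-04 and 0.00699).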

How the data were processed

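Per the labels' protocols, RNA of dissected germ lines was extracted with Trizol, amplified from poly-A RNA, and labelled with Cy3 or Cy5. The deposited table holds a log ratio for each of 22490 probes on each array, made by the authors and read here as log2 of mutant over wild type. The labels give neither the log base, the direction of the ratio, the normalization nor the filtering of spots. The direction was read from the channels, the titles and the mes-2 gene. The mutant is channel 1 on every array and is named first in each title, and the mes-2 gene is below 0 on this reading. Values on the mes-2 arrays ran from -9.3 to 9.15.

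Probes were named through the platform annotation: 17461 named 1 gene and 5029 none. They were averaged into 16378 genes, of which 16310 matched a gene table of assembly WBcel235, used for names, biotypes, chromosomes and gene order. Genes were kept where each group had values on 3 or more of its 4 arrays, and these 12887 genes were fitted with limma 3.58.1 in R 4.3.3 over all 12 arrays, with a coefficient per group and a dye term. Tests were two-sided, adjusted by Benjamini-Hochberg over all genes tested, and called under 0.05. The procedure was tested on simulated data.

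Named genes were mes-2, mes-3, mes-4 and mes-6, the 15 highest and 15 lowest called genes with a gene name and 1 side of 0 on every array, called members of the 31 gene lists (for lists with fewer than 2, the 2 with the smallest p), the 6 largest called each way per difference, and 10 measured genes on either side of mes-2. The genes, lists and tests were chosen with earlier results of these data known. Alternatives were a fit with no dye term, other sets of arrays, scalings, filters and weights, a fold threshold of 1.5 and the replicate number as a block. Each replicate is labelled as a biological replicate, and probes naming no gene stayed out of the comparisons.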

Additional observations from a re-analysis of the deposited data

Results flagged for a closer look

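On 1 of the 4 mes-2 arrays, replicate 2, a value stood apart from the other 3 for 4 of 118 named called genes with a value on every array (3.39%), and chance sets apart about 1 in 20 such groups. The chemoreceptor gene sre-44 had a log2 ratio of 6.34 on replicate 2, against 1.92 to 2.54 on the others. The BATH gene bath-23 had 2.78 there, against 1.39 to 1.51, and the C-type lectin gene clec-104 had 2.08, against 1.05 to 1.17. The BATH gene bath-20 had -0.95 there, against -0.45 to -0.35.

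Probes that name no gene here also carried signal. Of 4027 such probes tested in the same way with limma, 140 were called in mes-2 (3.48%), 99 higher and 41 lower, and what they measure was not determined.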

How the results depend on the processing

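No named gene that was called in mes-2 turned its direction in any alternative. Of those not called, set-1 (-0.55) reached 0.16, and Y54G11A.9 (0.04), Y54G11A.14 (-0.05) and lin-7 (-0.06) crossed 0. With the mes-2 arrays alone, a gene with a value on all 4 arrays keeps its mean, so its sign could not change. The same holds without the dye term, with the fold threshold, and with the mes-2 and double mutant arrays alone. The 39 called genes with a value on 3 mes-2 arrays kept their sign with the mes-2 arrays alone. Of the 134 named called genes, 62 lost the call in more than 4 alternatives. Of the 50 named genes not called, 9 were called in 1 or more. The cause of these shifts was not tested. The count of 676 was 402 without the dye term, 92 when changes had to exceed 1.5-fold, 366 with the mes-2 and double mutant arrays alone, and 357 to 463 with 1 mes-2 array left out. It was 1185 when replicate 3 of mes-4 and replicates 1 and 4 of the double mutant were left out. The 798 genes of mes-2 minus the double mutant became 367, 129, 330, 474 to 546 and 1355 in the same order. The 252 of mes-2 minus mes-4 became 117 without the dye term, 31 above 1.5-fold, 145 to 240 with 1 array left out, 668 without those 3 arrays, 417 with arrays scaled to the same spread and 753 with array weights. The dye term was called for 27 genes with the mes-2 arrays alone.

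The replicate numbers do not pair the samples: deviations of same-numbered arrays correlated at -0.473 to 0.54, above 0.1 for 4 of 12 pairs. The fit with the replicate block gave counts of 474 for mes-2, 453 for mes-2 minus the double mutant and 115 for mes-2 minus mes-4. The X chromosome difference of 0.041 ran from 0.005 to 0.083 over all alternatives tried. No log2 ratio below 0.302 was called higher, and none above -0.298 lower.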

Other observations

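Other genes in the neighbourhood of listed ones had large ratios that no list covers, and they were chosen after their values were seen. dpy-31, an astacin metalloprotease gene of cuticle formation on III, had 2.62, 1.87, 2.46 and 1.82 in mes-2 (mean 2.19, SE 0.15, limma adjusted p = 1.73e-05), against a ratio of 0.35 in the double mutant. magu-4, a membrane-associated guanylate kinase gene on IV, had 2.59, 1.61, 2.84 and 1.71 (mean 2.19, SE 0.38, limma adjusted p = 0.0063). pin-2, a LIM domain gene on IV, had 1.69, 2.83, 1.42 and 1.41 (mean 1.84, SE 0.24, limma adjusted p = 0.00117). tdrd-3, a Tudor domain gene on V, fell to -0.26, -1.3, -0.53 and -1.2 (mean -0.82, SE 0.13, limma adjusted p = 0.00367), less with the mutant in Cy5 than in Cy3. In the double mutant tdrd-3 had -1.52.

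The neighbouring genes lido-7, lido-8 and lido-9 on II rose together, with means of 1.00 (SE 0.10), 1.3 (SE 0.14) and 0.66 (SE 0.11), and each kept its call whichever mes-2 array was left out. unc-4, which is mutated in the wild-type strain of these arrays, had -0.45, -0.23, -0.28 and -0.21 and was not called (mean -0.29, SE 0.21, limma adjusted p = 0.579).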
